A study of Mus musculus with 19 samples.

Results

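The respiratory chain passes electrons from nutrients to oxygen and uses the energy to make ATP, and its subunits are encoded partly in the mitochondrial genome and mostly in the nucleus. The transcripts of 95 of its genes were followed in the liver of female Balb/c mice over a reproductive cycle, among 51826 gene entries measured. Members were taken by gene symbol: the protein-coding genes of the mitochondrial genome (13 genes) and the nuclear genes with the symbols Nduf followed by a subunit letter and number, Sdha to Sdhd, Uqcr, Cox4 to Cox8 with an isoform letter, and Atp5 (82 genes), leaving out 6 pseudogene entries. By complex, the nuclear members were 35 of complex I, 4 of complex II, 8 of complex III, 18 of complex IV and 17 of complex V, and the mitochondrial members were 7, 0, 1, 3 and 2. The symbol rule does not take in every known subunit: Cox4i1, for example, is outside it, and Ndufa4 and Ndufa4l2, named after complex I, were counted with complex IV, where their proteins are found. Atp5s and Atp5sl were counted with complex V by their symbols alone. Values were deposited as TPM, a measure of transcript abundance that is corrected for transcript length and scaled to the same total in each mouse. Of the 95 members, 93 were tested, and Cox7b2 and Cox8c were listed at 0 in every mouse.

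The mice were 7 nulliparous females, 6 at lactation day 10 and 6 at involution day 6, the sixth day after weaning. All were labelled 12 weeks old with no other treatment named, and the study obtained age-matched mice from Charles River Laboratories and The Jackson Laboratory without stating in the sources used here which mouse came from which. Each sample was RNA of flash-frozen tissue of 1 liver, with the poly(A)-carrying fraction enriched before sequencing. The methods name the caudate lobe under tissue collection and whole liver under RNA sequencing. Mice are named by stage (NUL, LAC or ID6) and animal number as in the labels, and the numbers ran from 1 to 240. Those under 200 belonged to 3 nulliparous and 3 lactating mice, and all 6 involution mice were numbered 200 or above.

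Complex I takes electrons from NADH and complex II takes them from succinate. Coenzyme Q carries them to complex III, cytochrome c carries them on to complex IV, which reduces oxygen, and complex V uses the resulting proton gradient to make ATP. The mitochondrial genome encodes the membrane core of complexes I, III, IV and V and no subunit of complex II. The hepatocyte is rich in mitochondria, and its synthesis of glucose and urea draws on their ATP.

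The tissue was checked against markers of its cells. All 8 hepatocyte markers were found, with a summed level of 62229 to 96871 TPM in nulliparous mice, 100999 to 150722 TPM in lactation and 82643 to 111930 TPM in involution. The 6 Kupffer cell markers summed to 149 to 286, 96.5 to 204 and 329 to 471 TPM in the same order, and 5 of the 6 fell into lactation (median log2 fold change -0.60) and all 6 rose to involution (adjusted p under 0.05 in the test described below). Into lactation 3 of 6 stellate cell, 2 of 6 sinusoidal endothelium, 2 of 8 other leukocyte, 1 of 5 cholangiocyte and 1 of 7 pancreatic acinar markers also fell, with medians of -0.53, -0.27, -0.38, -0.13 and 0.50. From lactation to involution all 8 other leukocyte, 4 of 6 endothelium, 3 of 6 stellate cell, 1 of 5 cholangiocyte and 1 of 7 acinar markers rose. Of 6 erythroid markers 5 were tested, and all 5 fell to involution. No tested marker of adipocytes, mesothelium or striated muscle passed in a stage comparison, and of the 8 hepatocyte markers 1 rose and 1 fell into lactation and 2 rose and 1 fell to involution. Fewer cells of a type and less RNA per cell cannot be told apart in RNA of liver tissue. The part of these shifts in the results below was not tested. Among the nulliparous mice, NUL_1 and NUL_4 held skeletal muscle transcripts: the list of 8 muscle markers summed to 424 TPM in NUL_1 and 78.3 TPM in NUL_4, against 0.02 to 0.13 TPM in the other 5.

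Transcripts from the mitochondrial genome took 7.91% to 14.5% of all TPM, and those of the nuclear members 2.66% to 3.18%. The most abundant nuclear members were Atp5b, the catalytic beta subunit of complex V, at a mean of 2600 TPM over the 19 mice, Cox6a1, a structural subunit of complex IV, at 1387 TPM, and Atp5e, the epsilon subunit of complex V, at 1045 TPM. Uqcrq led complex III at 1042 TPM, Ndufb9 led complex I at 492 TPM and Sdhb led complex II at 295 TPM. Of the 82 nuclear members, 76 had a mean of at least 10 TPM and 67 of at least 100 TPM.

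Over the cycle the summed mitochondrial transcripts were highest in nulliparous mice and lowest in involution. The sum of the 13 genes was 116078 to 144659 TPM in nulliparous mice (median 131956), 100385 to 144859 TPM in lactation (median 126651) and 79096 to 112457 TPM in involution (median 99398). Every involution mouse was below every nulliparous mouse, and involution overlapped with lactation. With near-identical nuclear copies of these genes added, as given below, involution and nulliparous mice overlapped as well. The means were 131292 ± 9541 TPM (SD, n = 7), 125108 ± 18923 TPM (SD, n = 6) and 98082 ± 14611 TPM (SD, n = 6), so that involution was 25.3% below nulliparous and 21.6% below lactation, while lactation was 4.71% below nulliparous, less than the spread between mice. The sum of the nuclear members was 26640 to 31822 TPM in nulliparous mice, 26906 to 28181 TPM in lactation and 26794 to 28979 TPM in involution, and all 3 stages overlapped. Its mean differed by -7.47% between lactation and nulliparous mice, by 1.30% between involution and lactation and by -6.27% between involution and nulliparous mice. For each TPM of nuclear members there were 4.10 to 4.95 TPM of mitochondrial ones in nulliparous mice, 3.73 to 5.33 in lactation and 2.92 to 4.04 in involution, where every mouse was below every nulliparous mouse.

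**Figure D1:**
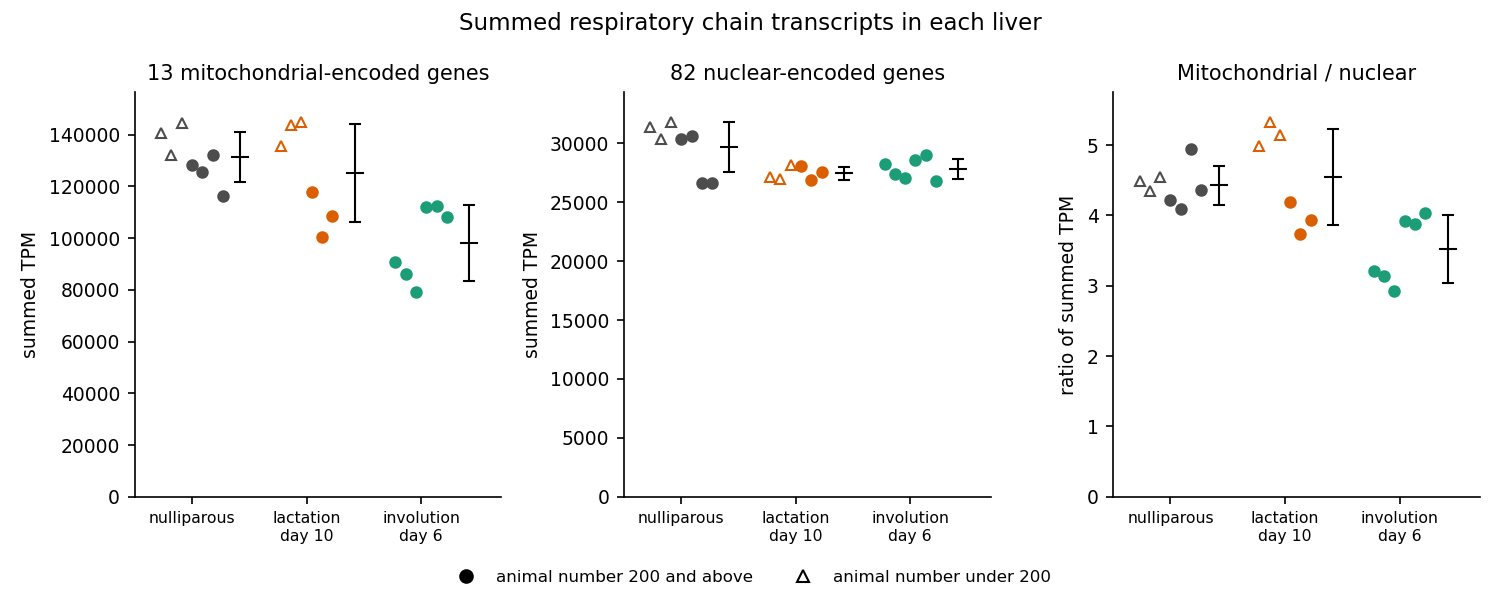
Summed TPM of the 13 mitochondrial-encoded genes (left), of the 82 nuclear-encoded genes (middle) and their ratio (right) in each mouse, with 1 point a mouse, filled circles for animal numbers of 200 and above, open triangles for numbers under 200, and mean ± SD beside each stage. The 6 involution mice lie between 79096 and 112457 TPM for the mitochondrial genes, below all 7 nulliparous mice, and the nuclear sums overlap between stages.

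The stage and the animal number were partly tied in these sums. In lactation the 3 mice numbered under 200 had 135659 to 144859 TPM of mitochondrial transcripts and the 3 numbered 200 and above had 100385 to 117643 TPM, with no overlap. In nulliparous mice the ranges were 132069 to 144659 TPM and 116078 to 131956 TPM. Under 200 the lactation mean was 141393 TPM, slightly above the nulliparous mean of 139172 TPM. Among mice numbered 200 and above the involution mice were still below the 4 nulliparous mice, but the 3 lactating mice overlapped with both other stages. Their means were 125382 ± 6759 TPM in nulliparous mice (SD, n = 4), 108823 ± 8635 TPM in lactation (SD, n = 3) and 98082 ± 14611 TPM in involution (SD, n = 6), so that lactation differed from nulliparous by -13.2%, involution from lactation by -9.87%, less than the spread between mice, and involution from nulliparous by -21.8%. The nuclear sums differed by -3.69%, 1.16% and -2.57% in these mice. The ratio of mitochondrial to nuclear TPM changed into lactation in opposite directions by animal number. Under 200 it was 4.35 to 4.55 in nulliparous mice (mean 4.46) and 4.99 to 5.33 in lactation (mean 5.15), without overlap. At 200 and above it was 4.10 to 4.95 in nulliparous mice (mean 4.40) and 3.73 to 4.19 in lactation (mean 3.95), with overlap. This difference in the ratio was not tested. The involution mice themselves split: ID6_201, ID6_209 and ID6_216 had 79096 to 90659 TPM and ID6_218, ID6_230 and ID6_232 had 108136 to 112457 TPM. For 12 of the 13 genes the 3 lowest involution values belonged to ID6_201, ID6_209 and ID6_216, and mt-Nd6 was the exception. The split was not confined to involution or to mitochondrial genes. These 3 mice, NUL_4, NUL_227 and LAC_213 held 1964 to 3101 TPM of mt-Nd3, against 3703 TPM or more in every other mouse. The same mice held 139 to 196 TPM of the nuclear member Ndufa3, against 234 TPM or more in every other mouse. What sets these mice apart was not tested, and its part in the involution comparisons is unknown.

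Gene by gene, no mitochondrial member passed the test between lactation and nulliparous mice, 2 fell from lactation to involution and 2 were lower in involution than in nulliparous mice. The test was a moderated linear model (limma) of log2(TPM + 1) over 16230 genes, called at a Benjamini-Hochberg adjusted p under 0.05, and all fold changes are on this log2 scale, which understates changes of genes with low TPM. Of all genes tested, 2.72% passed as higher and 6.49% as lower in lactation than in nulliparous mice, 18.1% and 4.73% in involution than in lactation, and 3.44% and 0.912% in involution than in nulliparous mice. The 13 mitochondrial genes had a median log2 fold change of -0.13, -0.32 and -0.46 in these comparisons, beside -0.03, 0.10 and 0.07 over all genes, and in both comparisons with involution all 13 values were negative. Among mice numbered 200 and above the medians were -0.23, -0.12 and -0.34, and 12, 10 and 13 values were negative. The exceptions from lactation to involution were mt-Nd4l, mt-Nd5 and mt-Nd6, at 0.0049, 0.13 and 0.36. At an unadjusted p under 0.05 in all 19 mice there were 1, 7 and 12 of the 13, beside 23.1%, 35.2% and 25.1% of all genes. The 2 comparisons with involution share the involution mice. The 13 genes also varied together over the 19 mice, with a median r of 0.76 over their 78 pairs. These counts of signs and of unadjusted p are therefore not counts of independent results.

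**Figure D2:**
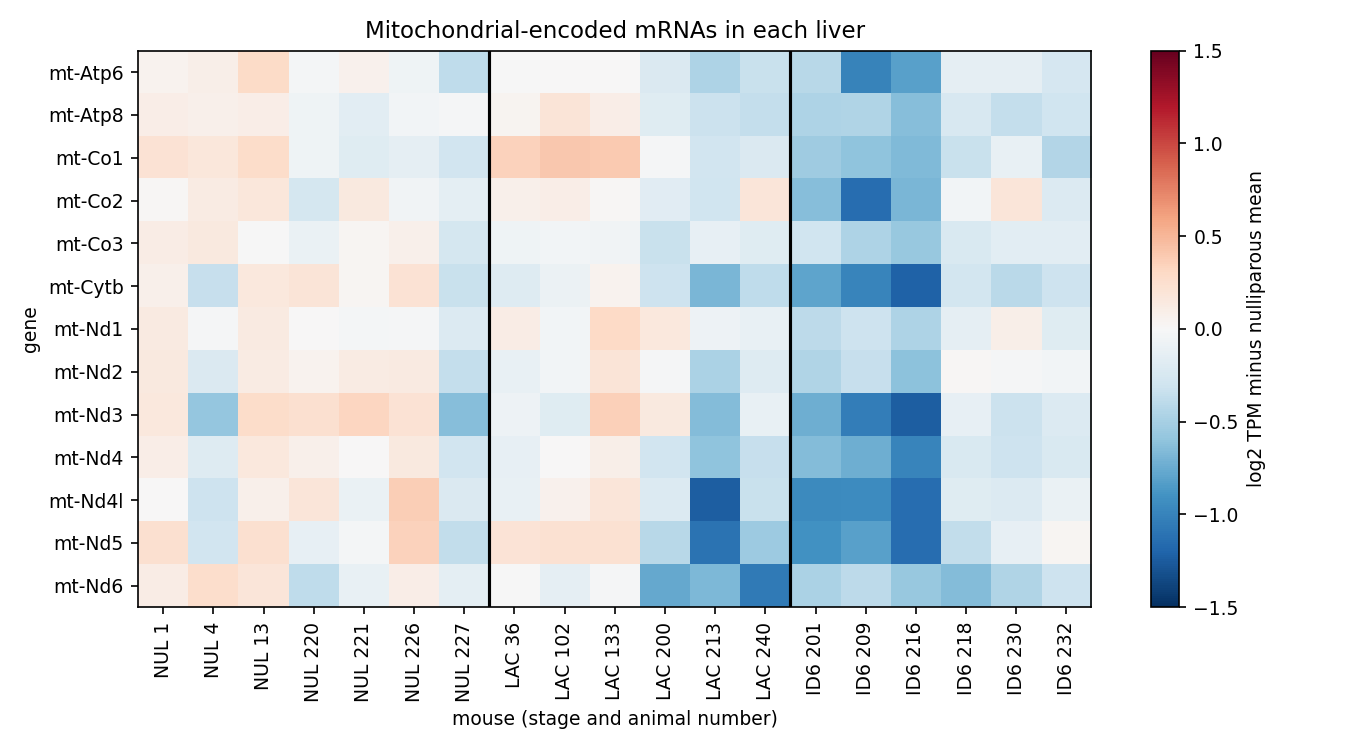
Heat map of the 13 mitochondrial-encoded genes (rows) in each mouse (columns, grouped by stage and ordered by animal number), coloured by log2 TPM minus the mean of the nulliparous mice. Dark blue fields, which are the lower values, cluster in ID6_201, ID6_209 and ID6_216, and also appear in LAC_213, while mt-Nd6 is lowest in the 3 lactating mice numbered 200 and above.

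Cytochrome c oxidase subunit 1, mt-Co1, which holds the oxygen-binding center of complex IV, had the lower adjusted p of the 2 genes that fell from lactation to involution. It was at 14575 to 21483 TPM in nulliparous mice (median 17035), 14577 to 23615 TPM in lactation (median 20110) and 11228 to 16498 TPM in involution (median 12696). The involution values overlapped with the low end of both other stages. The log2 fold change from lactation to involution was -0.55 ± 0.15 (SE; limma, adjusted p = 0.0119), and that from nulliparous mice was -0.45 ± 0.14 (adjusted p = 0.0774). mt-Co1 was also tied to the animal number: its lowest value under 200 was 19955 TPM and its highest at 200 and above was 17603 TPM. Among mice numbered 200 and above the fall from lactation to involution was -0.27 ± 0.13 and did not pass (limma, adjusted p = 0.199). The other 2 mitochondrial subunits of complex IV, mt-Co2, which takes electrons from cytochrome c, and mt-Co3, had log2 fold changes of -0.40 and -0.18 from lactation to involution, neither past the threshold.

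Cytochrome b, mt-Cytb, the only mitochondrial subunit of complex III, was at 6992 to 10345 TPM in nulliparous mice (median 9343), 5539 to 9199 TPM in lactation (median 7483) and 3833 to 7346 TPM in involution (median 5918). Involution and nulliparous mice overlapped only between the lowest nulliparous and the highest involution values. Only the difference between involution and nulliparous mice passed, at -0.66 ± 0.16 (SE; limma, adjusted p = 0.0304), while the step to lactation was -0.27 ± 0.16 (adjusted p = 0.346). In complex I, mt-Nd4, a proton-pumping subunit, was at 4870 to 6611 TPM in nulliparous mice (median 6272), 3917 to 6305 TPM in lactation (median 5177) and 2982 to 5067 TPM in involution (median 4287). Its difference between involution and nulliparous mice was -0.53 ± 0.14 (SE; limma, adjusted p = 0.0383). mt-Nd1, a subunit near the quinone-binding site, was at 5398 to 6856 TPM, 5792 to 7709 TPM and 4544 to 6648 TPM in the 3 stages, with overlap, and fell from lactation to involution by 0.29 on the log2 scale (SE 0.10; limma, adjusted p = 0.0468). That call was lost when any 1 of 13 of the 19 mice was left out (limma, adjusted p up to 0.115) and under 6 of 14 alternatives. The calls of mt-Cytb and mt-Nd4 were lost without any 1 of 5 and of 7 mice, and under 6 of 14 alternatives each. None of the 3 passed among mice numbered 200 and above, where mt-Cytb differed from nulliparous mice by -0.69 ± 0.19 and mt-Nd4 by -0.51 ± 0.16 (limma, adjusted p = 0.144 and 0.186).

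The remaining complex I genes did not pass. mt-Nd2, mt-Nd3, mt-Nd4l and mt-Nd5, all membrane subunits, differed between involution and nulliparous mice by -0.24, -0.61, -0.59 and -0.55 on the log2 scale. mt-Nd6, the only one of the 13 that lies on the other strand of the mitochondrial genome, was at 1232 to 1922 TPM in nulliparous mice, 769 to 1594 TPM in lactation and 1021 to 1298 TPM in involution, with a log2 fold change of -0.44 ± 0.15 from nulliparous mice to lactation (limma, adjusted p = 0.0802) and -0.03 ± 0.16 from lactation to involution. Among mice numbered 200 and above the first of these was -0.69 ± 0.12 and passed (limma, adjusted p = 0.0052), and the second was 0.36 ± 0.11 (adjusted p = 0.0546). The difference between nulliparous and lactating mice was also compared between the ranges of animal number: it differed for 0.111% of all genes and for none of the 93 members (limma, with 28 members, 30.1%, at an unadjusted p under 0.05, beside 13.3% of all genes). Of 80 nuclear values 68 were positive, beside 6453 of 16230 over all genes. At that unadjusted limit 24 (30%) were higher at 200 and above, beside 4.38% of all genes. Of 13 mitochondrial values 11 were negative, beside 9760 of 16230, and 3 (23.1%) were lower, beside 8.93% of all genes. Members vary together, with a median r of 0.76 for mitochondrial and 0.34 for nuclear pairs. These are therefore not counts of independent results. NUL_1 and NUL_4, with most muscle transcripts, are 2 of the 3 nulliparous mice under 200.

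In complex V, mt-Atp8 was listed with the highest TPM of all the mitochondrial members, a level that is uncertain because the gene is very short. mt-Atp8, a small membrane subunit, alone was at 49042 to 58308 TPM in nulliparous mice, 42489 to 62487 TPM in lactation and 35075 to 46269 TPM in involution. Every involution mouse was below every nulliparous mouse, and the difference was -0.41 ± 0.12 (SE; limma, adjusted p = 0.0573), just short of the threshold. mt-Atp6, the proton channel subunit, was at 4243 to 6745, 4017 to 5587 and 2760 to 5048 TPM in the 3 stages, with -0.46 ± 0.14 between involution and nulliparous mice (limma, adjusted p = 0.0722). Without mt-Atp8 the sum of the other 12 genes was 62004 to 86380 TPM, 56555 to 86138 TPM and 44021 to 69808 TPM, and the involution mean differed by -22.3% from lactation and by -25.9% from nulliparous mice. This sum overlapped between involution and nulliparous mice, and so did its ratio to the nuclear members.

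How reads were divided bears on these levels, because mitochondrial genes overlap and have copies in the nucleus. mt-Atp8 is 204 bases long, shorter than the inserts the study's methods describe, and its end runs into mt-Atp6. TPM is corrected for length, so its high TPM need not mean more transcript than for the other genes. By position, mt-Nd6 and the end of mt-Nd5 on the other strand share bases. The study's methods do not state whether the reads kept their strand. The last 60 bases of 2 genes are shown with the bases that also belong to the next gene in capitals, because reads there fit both genes. They are from GRCm38, plus strand, at chrM:7910-7969 and chrM:10114-10173.
mt-Atp8, with 43 bases shared with mt-Atp6: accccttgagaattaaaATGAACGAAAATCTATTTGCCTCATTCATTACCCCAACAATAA
mt-Nd4l, with 7 bases shared with mt-Nd4: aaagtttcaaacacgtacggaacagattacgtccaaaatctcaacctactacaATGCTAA

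Of the 13 mitochondrial members, 7 had a near-identical nuclear copy, and the 7 copies lie side by side on chromosome 1 (GRCm38, chr1:24611535-24616197, 4663 bases). The gene Gm10925 there matches 678 bases of mt-Atp6 at 100% identity and was listed at a mean of 7768 TPM, 157% of the mean of mt-Atp6 itself. Gm28437, a copy of mt-Co3, was at 147% of its original, Gm10222, a copy of mt-Nd4l, at 249%, and Gm28661, a copy of mt-Co2, at 94.4%. The mt-Nd4l bases shown above, except the last 3, are also in Gm10222. Reads that fit both genes of such a pair cannot be told apart, so the level of either gene alone is uncertain. The copies summed to 26431 to 46788 TPM in nulliparous mice, 26100 to 49715 TPM in lactation and 18529 to 30844 TPM in involution. The 13 genes plus copies took 14.25% to 19.14%, 12.65% to 19.46% and 9.76% to 14.30% of all TPM in the same order. Involution and nulliparous mice thus overlapped in this sum. With each member summed with its copy, an alternative chosen after seeing the data, 5 mitochondrial members fell from lactation to involution (mt-Atp6, mt-Co1, mt-Co2, mt-Co3 and mt-Nd1) and 5 were lower than in nulliparous mice (mt-Atp6, mt-Co2, mt-Co3, mt-Cytb and mt-Nd4), by 0.46 on the log2 scale for mt-Co3 with its copy (SE 0.10; limma, adjusted p = 0.0153). Among nuclear members, Atp5l, a membrane subunit of complex V, shares its sequence with Gm10221, which was at 61.3% of its level, and with Gm4045, and Atp5g1, Atp5h, Ndufa12 and Cox5b each have 1 such copy.

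**Figure D3:**
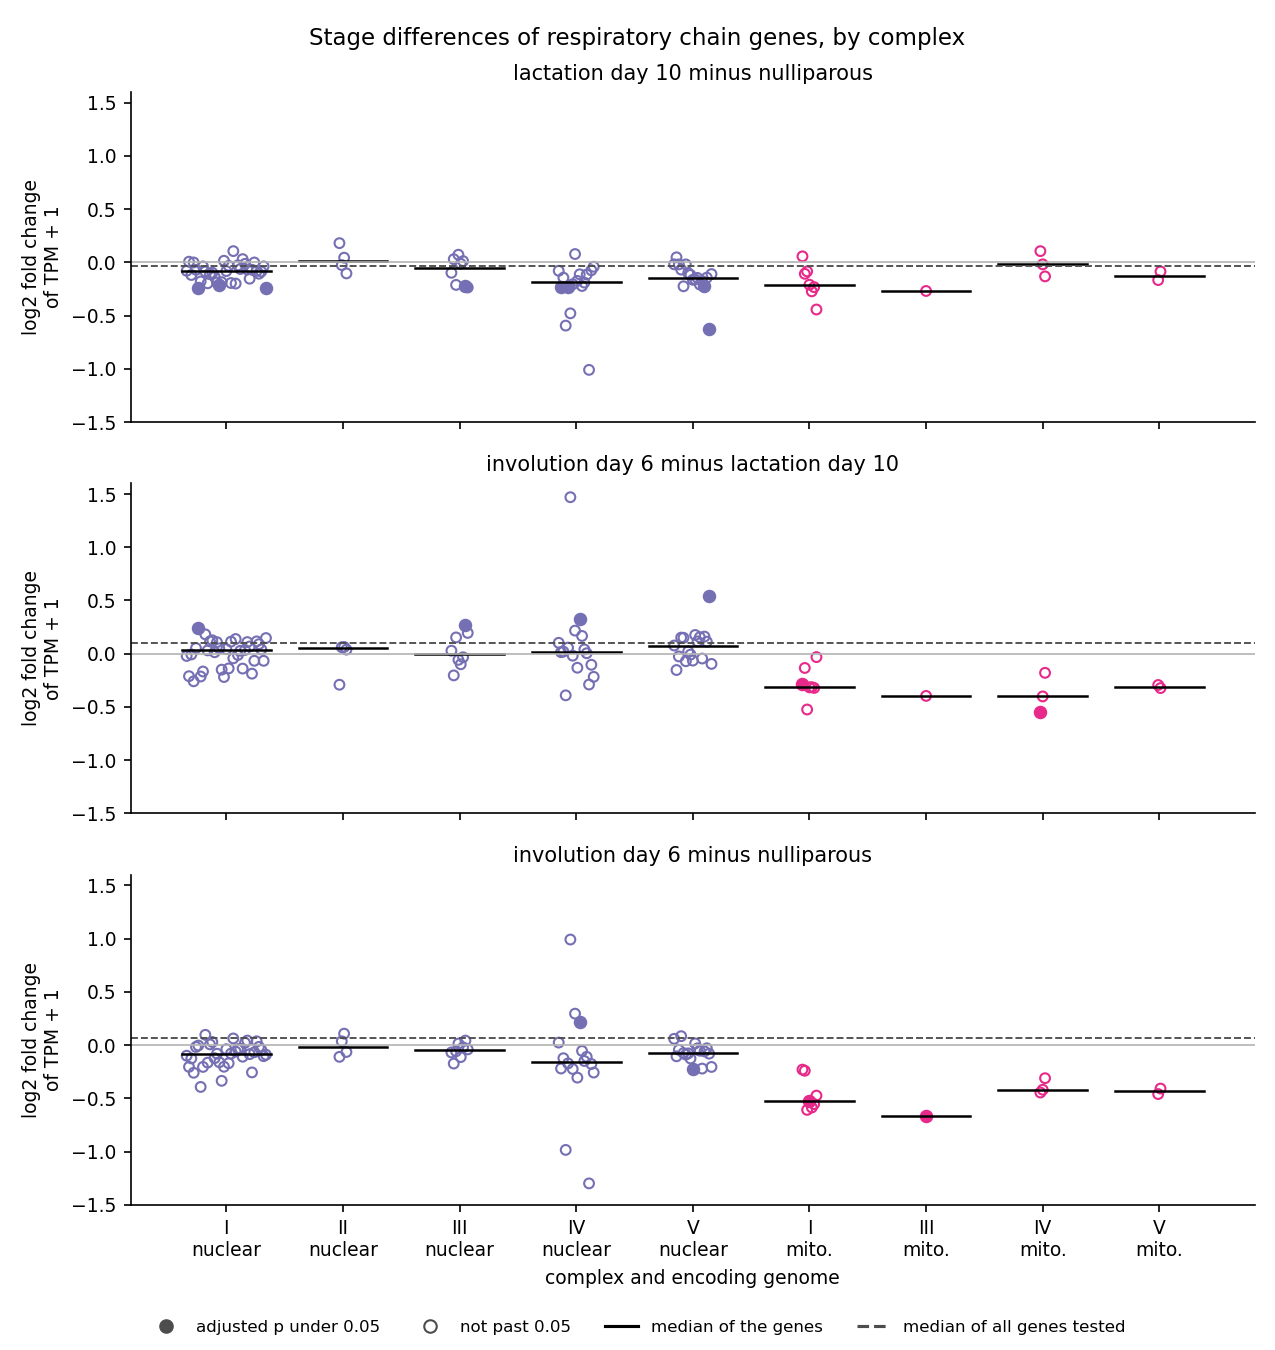
Log2 fold change of TPM + 1 for each of the 93 tested genes in the 3 stage comparisons, by complex and encoding genome. Filled points passed an adjusted p of 0.05, black bars are medians of the genes and the dashed line is the median of all genes tested. The 13 mitochondrial genes lie below 0 in both comparisons with involution, and nuclear members lie on both sides of 0, with medians of -0.11, 0.03 and -0.08.

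From nulliparous mice to lactation, 8 of 80 nuclear members (10%) fell and none rose, beside 6.49% lower and 2.72% higher of all genes. The median log2 fold change of the nuclear members was -0.11, beside -0.03 over all genes. Of 80 nuclear values 69 were negative, beside 9401 of 16230 over all genes, and members vary together. By complex the falls were 3 of 35 in complex I (Ndufa2, Ndufb2 and Ndufv3), 0 of 4 in complex II, 1 of 8 in complex III (Uqcrh), 2 of 16 in complex IV (Cox5b and Cox6b1) and 2 of 17 in complex V (Atp5l and Atp5s). Apart from Atp5s at -0.62 they were small, between -0.24 and -0.21. At an unadjusted p under 0.05 there were 25 nuclear members, 25 of them lower (31.2%, beside 15.8% of all genes). Kupffer, stellate, endothelial and other leukocyte markers also fell in this comparison, as given above, and their part in the falls was not tested. This result depended on the mice and the scaling: without NUL_1 and NUL_4, the mice with most muscle transcripts, none of the 8 passed, and after median-ratio scaling none passed either. Among animal numbers under 200, where NUL_1 and NUL_4 are 2 of the 3 nulliparous mice, 6 nuclear members fell (1.89% of all genes did). At 200 and above 1 rose, Cox7a1, and 1 fell, Atp5s (2.61% and 4.47% of all genes).

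Ndufv3, an accessory subunit of the NADH-oxidizing arm of complex I, had the lowest adjusted p of the 8. It was at 269 to 338 TPM in nulliparous mice (median 313), 242 to 269 TPM in lactation (median 262) and 254 to 306 TPM in involution (median 292). Of the lactating mice, 5 were below every nulliparous mouse and the other was within 1 TPM of the lowest, and the log2 fold change was -0.24 ± 0.06 (SE; limma, adjusted p = 0.0178). Cox6b1, a subunit at the contact between the monomers of complex IV, was at 471 to 606 TPM in nulliparous mice (median 551) and 442 to 478 TPM in lactation (median 456). The highest lactation value exceeded only the lowest nulliparous values, and the fold change was -0.23 ± 0.07 (SE; limma, adjusted p = 0.0339). It remained at 424 to 521 TPM in involution. Atp5s, named as factor B of complex V, was low throughout, at 5.63 to 9.19 TPM in nulliparous mice, 2.43 to 7.29 TPM in lactation and 4.21 to 9.35 TPM in involution. Its fall to lactation of 0.62 on the log2 scale (SE 0.19; limma, adjusted p = 0.0405) and its rise of 0.54 to involution (SE 0.19; adjusted p = 0.0482) both passed, and both also passed among mice numbered 200 and above, at -0.75 ± 0.18 and 0.83 ± 0.17 (limma, adjusted p = 0.0257 and 0.00514). In all 19 mice the fall was lost when any 1 of 8 mice was left out and under 6 of 15 alternatives, and the rise with any 1 of 15 mice and under 7 of 15 alternatives. The fall of Cox6b1 was lost with any 1 of 9 mice and under 5 of 15 alternatives, and that of Ndufv3 with no mouse and under 4 of 15.

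From lactation to involution, 4 of 80 nuclear members rose and none fell, which is a smaller share than the 18.1% of all genes that rose. The 4 were Ndufa2, Uqcrh, Cox7a2l and Atp5s, 1 each in complexes I, III, IV and V. The nuclear median was 0.03, beside 0.10 over all genes. The count turned with the scaling: median-ratio scaling moved the median of all genes in this comparison by -0.10, to -0.0049, and gave 0 nuclear members higher and 11 lower, and 7 mitochondrial members lower. At that scaling the nuclear median was -0.13 and the mitochondrial median -0.48. The nuclear median was thus above 0 in deposited TPM and below 0 after that scaling, and the mitochondrial median was below 0 in both.

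Cox7a2l, also called SCAFI and known as a factor that joins complexes III and IV into supercomplexes, which were not measured here, rose to involution. It was at 115 to 128 TPM in nulliparous mice (median 120), 101 to 128 TPM in lactation (median 111) and 134 to 157 TPM in involution (median 138). Every involution mouse was above every mouse of the other 2 stages. The log2 fold change was 0.33 ± 0.06 from lactation (SE; limma, adjusted p = 0.000986) and 0.21 ± 0.06 from nulliparous mice (adjusted p = 0.04996), and among mice numbered 200 and above the first was 0.24 ± 0.07 (adjusted p = 0.0366). After median-ratio scaling neither passed, and the difference from nulliparous mice was also lost when any 1 of 14 of the 19 mice was left out.

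Uqcrh, the hinge protein that helps cytochrome c dock on complex III, was at 527 to 615 TPM in nulliparous mice (median 548), 439 to 562 TPM in lactation (median 479) and 544 to 629 TPM in involution (median 585). Of the lactating mice, 5 were below every mouse of both other stages, LAC_213 was within their range, and the 3 under 200 were the lowest. It fell by 0.22 on the log2 scale into lactation (SE 0.06; limma, adjusted p = 0.0349) and rose by 0.27 to involution (SE 0.07; adjusted p = 0.00768). Among mice numbered 200 and above these were -0.11 ± 0.07 and 0.15 ± 0.07, neither past the threshold. Ndufa2, an accessory subunit of complex I, followed the same course, at 296 to 395, 274 to 333 and 328 to 393 TPM, with -0.24 ± 0.07 and 0.24 ± 0.07 (SE; limma, adjusted p = 0.0313 and 0.0211). At 200 and above it was at -0.12 ± 0.09 and 0.17 ± 0.08, and neither passed (limma, adjusted p = 0.517 and 0.225). The falls of Uqcrh and Ndufa2 into lactation were lost with any 1 of 6 and of 7 mice left out, and the rise of Ndufa2 without 1 mouse.

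Between involution and nulliparous mice, 1 nuclear member was higher, Cox7a2l, and 1 was lower (1.25% each, beside 3.44% higher and 0.912% lower of all genes). The lower one was Atp5g3, 1 of 3 genes for the same c subunit of the rotating ring of complex V. It was at 700.43 to 888 TPM in nulliparous mice (median 782), 662 to 758 TPM in lactation (median 698) and 641 to 700.49 TPM in involution (median 674). The highest involution mouse was level with the lowest nulliparous mouse, and the log2 fold change was -0.23 ± 0.06 (SE; limma, adjusted p = 0.0387), which was lost when any 1 of the involution mice, NUL_1, NUL_4 or NUL_13 was left out. The other 2 genes of the c subunit, Atp5g1 and Atp5g2, had -0.08 ± 0.07 and -0.13 ± 0.15, and Atp5g3 held 47.5% of the TPM of the 3 genes in nulliparous mice, 46.5% in lactation and 45.1% in involution. The nuclear median in this comparison was -0.08, beside 0.07 over all genes. Of 80 nuclear values 62 were negative, beside 5796 of 16230 over all genes, and members vary together. The stricter call of the study, which also asks for a log2 fold change of at least 1, was passed by 0.746%, 1.93% and 0.253% of all genes in the 3 comparisons, in either direction, and by no member.

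**Figure D4:**
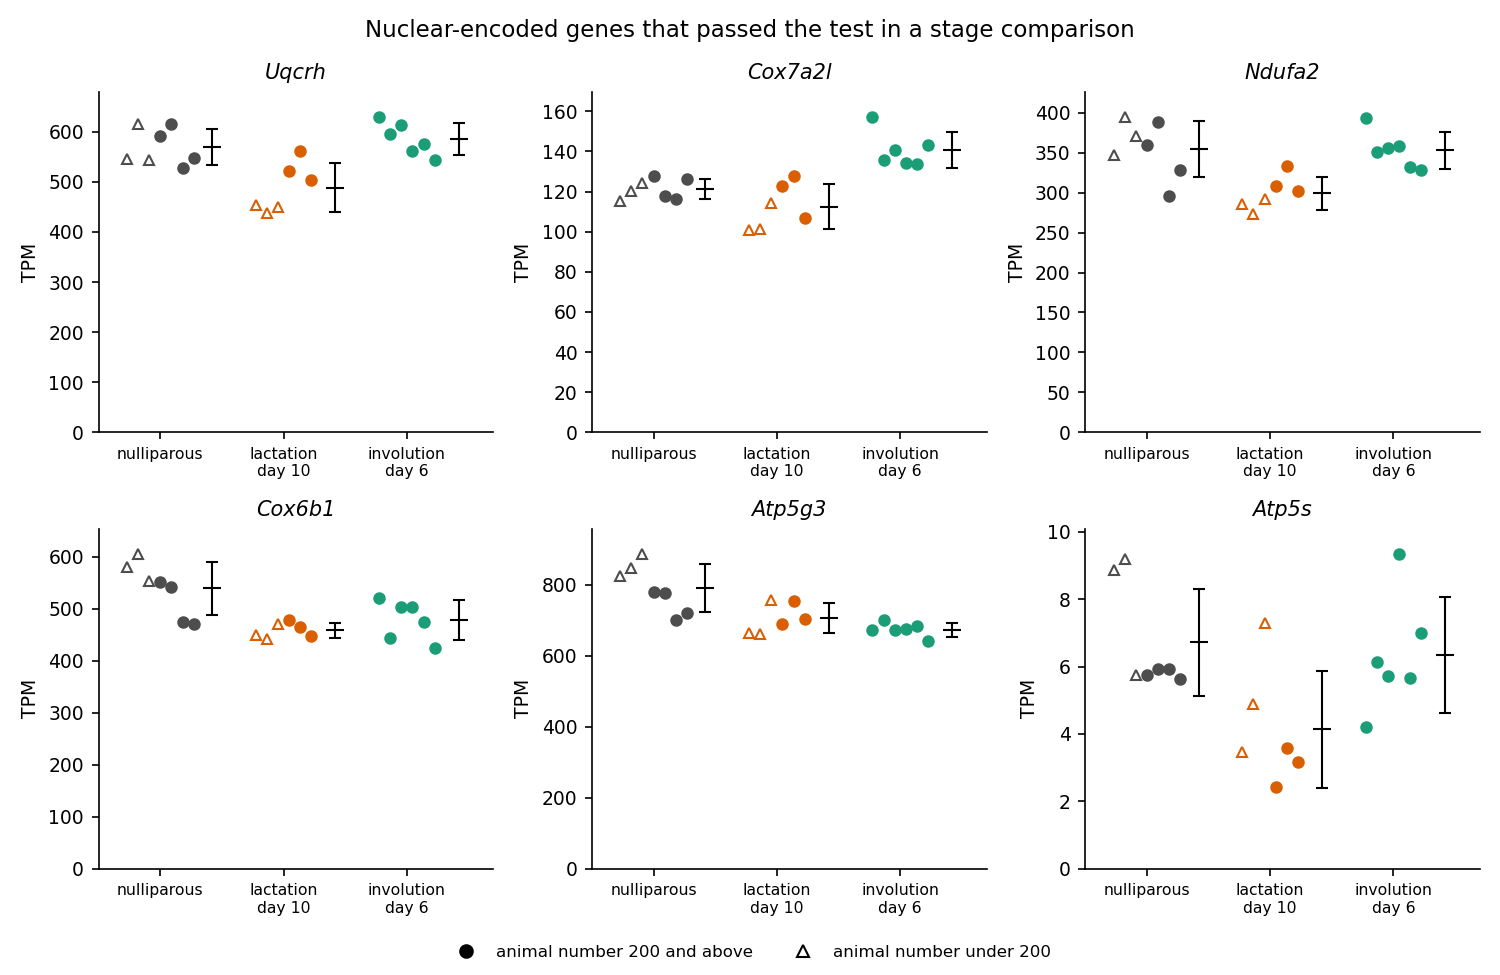
TPM of 6 nuclear-encoded genes that passed the test in a stage comparison, with 1 point a mouse, filled circles for animal numbers of 200 and above, open triangles for numbers under 200, and mean ± SD beside each stage. Cox7a2l lies at 134 to 157 TPM in involution, above all other mice, while the other 5 genes overlap between stages.

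Complex II, the only complex with no mitochondrial subunit, had no member past the threshold in any stage comparison. Sdha, which carries the flavin and oxidizes succinate, was at 234 to 313, 231 to 378 and 204 to 297 TPM, with a log2 fold change of 0.18 ± 0.11 into lactation and -0.29 ± 0.12 to involution (limma, adjusted p = 0.356 and 0.0776). Sdhb, the iron-sulfur subunit, was at 219 to 387, 264 to 306 and 267 to 340 TPM. The membrane anchors Sdhc and Sdhd were at 119 to 164 and 229 to 290 TPM over all stages.

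The promoters of the nuclear members were searched for the motifs of 4 factors known from respiratory genes. Of the 82 nuclear members, 66 had a promoter in the RefSeq table for GRCm38.p6 (250 bases before to 50 after the start, 71 promoters, since 5 members had 2). The NRF1 motif CGCANGCGC was present, on either strand, in 33.8% of the 71 promoters and in 6.31% of all 32851 promoters. The YY1 motif AAGATGGCG was in 9.86% against 1.40%, the ERRA motif CAAGGTCA in 5.63% against 1.56%, and the GABPA motif CCGGAAGTG in 2.82% against 2.03%. None of the 4 motifs contains another. These are counts of letters and not of bound sites. The 250 bases before the start are shown for 3 of the members that passed a stage test and hold a motif, with the motif in capitals. All 3 are on the minus strand and printed in the direction of the gene. Uqcrh (chr4:116075071-116075320) and Atp5l (chr9:44920743-44920992) fell into lactation, and Atp5g3 (chr2:73911327-73911576) was lower in involution than in nulliparous mice.
Uqcrh, GABPA motif on the opposite strand: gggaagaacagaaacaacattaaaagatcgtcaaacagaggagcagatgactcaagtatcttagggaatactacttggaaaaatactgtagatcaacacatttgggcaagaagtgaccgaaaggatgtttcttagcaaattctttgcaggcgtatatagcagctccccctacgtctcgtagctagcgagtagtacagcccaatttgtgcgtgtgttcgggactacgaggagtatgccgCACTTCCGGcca
Atp5l, NRF1 motif and, nearer the start, ERRA motif on the opposite strand: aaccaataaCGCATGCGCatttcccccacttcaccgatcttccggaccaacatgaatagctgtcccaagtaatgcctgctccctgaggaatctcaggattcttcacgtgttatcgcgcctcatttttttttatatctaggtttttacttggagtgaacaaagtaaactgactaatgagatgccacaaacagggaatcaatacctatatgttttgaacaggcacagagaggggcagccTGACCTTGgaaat
Atp5g3, ERRA motif on the opposite strand: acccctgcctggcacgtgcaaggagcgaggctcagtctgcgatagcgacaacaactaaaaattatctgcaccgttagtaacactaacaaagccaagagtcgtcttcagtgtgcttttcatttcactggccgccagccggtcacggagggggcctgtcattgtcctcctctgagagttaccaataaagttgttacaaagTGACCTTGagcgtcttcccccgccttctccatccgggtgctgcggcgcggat
In Atp5g3 an NRF1 motif also begins after the start, outside the stretch shown. Of the other members past a stage threshold, Cox5b, Cox6b1, Cox7a2l, Ndufb2 and Ndufv3 had a promoter in the table and none of the 4 motifs in it.

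Several subunits of complex IV have a second gene used mainly in other tissues. Cox6b2, known as the testis form of the Cox6b subunit, separated the ranges of animal number. It was at 2.01, 2.33 and 3.43 TPM in the nulliparous mice under 200 and at 29.2 to 50.5 TPM in the 4 at 200 and above. In lactation it was at 2.88 to 3.72 TPM under 200 and at 18.0 to 27.1 TPM above, and all 6 involution mice had 18.8 to 43.0 TPM. The 2 ranges of animal number did not overlap in the stages that hold both. Among mice numbered 200 and above every lactating mouse was below every nulliparous mouse, with a log2 fold change of -0.77 ± 0.24 (SE; limma, adjusted p = 0.0764), and involution differed from nulliparous mice by -0.50 ± 0.20 and from lactation by 0.27 ± 0.22 (adjusted p = 0.334 and 0.472). In the nulliparous and lactating mice, with stage in the fit, the difference was 2.98 ± 0.20 on the log2 scale (SE; limma, adjusted p = 7.07e-07), the fifth highest of 16230 genes, while the stage comparisons in all 19 mice did not pass (limma, adjusted p = 0.161 to 0.742). Its broadly used partner Cox6b1 differed by -0.09 ± 0.06 in that test. Cox6b2 made up 0.331% to 9.20% of the TPM of the pair. It lies at chr7:4751792-4753094 in GRCm38, and of 19 tested genes within 250 kb 6 were higher and 1 was lower at 200 and above, with log2 fold changes from -0.43 to 1.48.

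Of the heart and skeletal muscle forms of other complex IV subunits, Cox8b and Cox6a2 were highest in NUL_1 and NUL_4, the mice with most muscle transcripts. Cox8b was at 52.3 TPM in NUL_1 and 10.4 TPM in NUL_4, and at 0 to 2.49 TPM in the other 5. Cox6a2 was at 18.2 and 4.81 TPM in the same mice and at 0 to 0.20 TPM in the others. Cox7a1 was at 37.8 TPM in NUL_1, its highest value, and at 9.10 to 14.8 TPM in the other 6, among them NUL_4 at 14.8 TPM, below ID6_216 at 26.3 TPM and LAC_240 at 24.7 TPM. The muscle genes Acta1, skeletal actin, and Ckm, muscle creatine kinase, were at 112 and 98.9 TPM in NUL_1 and at 16.6 and 21.2 TPM in NUL_4, and at or near 0 in the other 5. LAC_102 and LAC_133 held 1.46 and 1.74 TPM of Cox6a2 and 4.20 and 8.07 TPM of Acta1. Of the TPM of each pair, the broadly used forms held 94.5% to 100% (Cox8a), 98.8% to 100% (Cox6a1) and 89.1% to 96.8% (Cox7a2), so that Cox7a1 reached 10.9%. At 200 and above, where muscle transcripts were near 0 in all but ID6_230, Cox7a1 rose from 9.10 to 14.5 TPM in nulliparous mice to 19.02 to 24.7 TPM in lactation (log2 fold change 0.86 ± 0.21, SE; limma, adjusted p = 0.0266), and in the fit of all 19 mice it did not pass (0.08 ± 0.27).

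**Figure D5:**
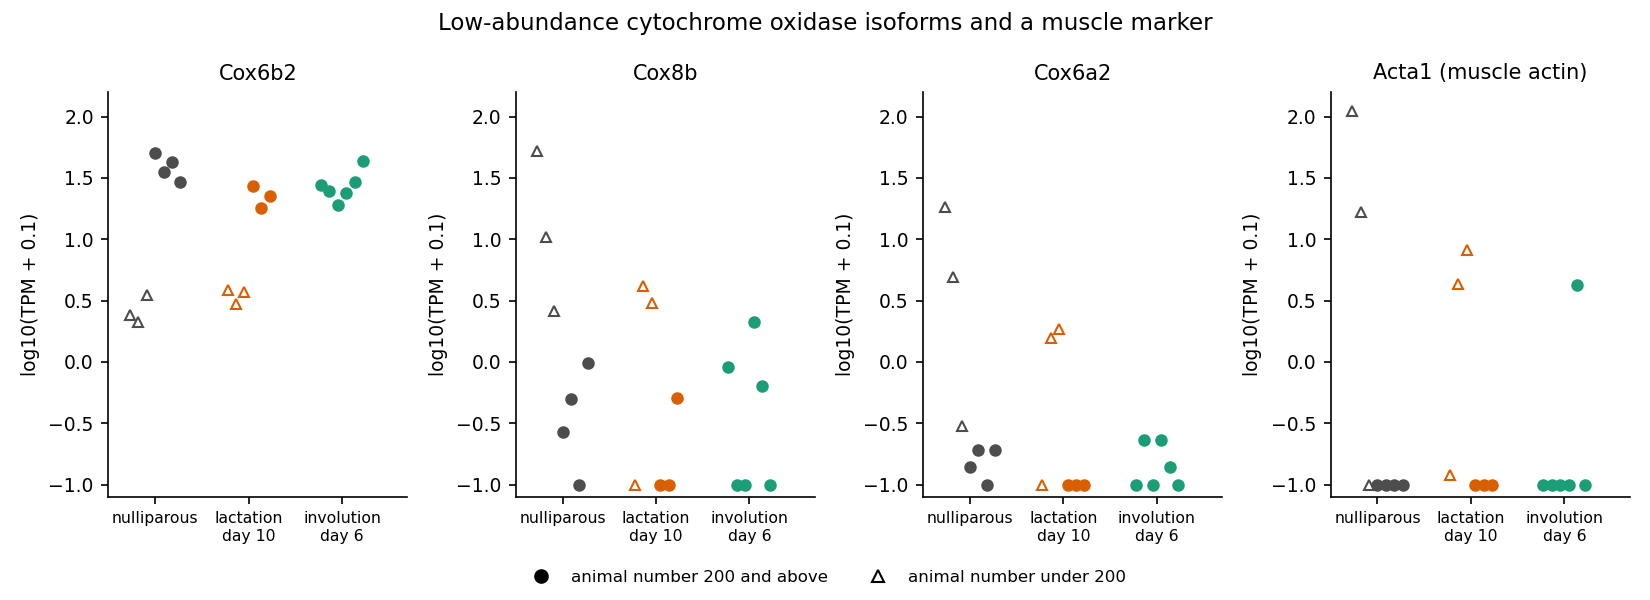
Levels of 3 complex IV isoform genes and of the muscle gene Acta1 in each mouse, as log10(TPM + 0.1), with 1 point a mouse, filled circles for animal numbers of 200 and above and open triangles for numbers under 200. Cox6b2 separates the 2 ranges of animal number in both stages that hold them, whereas Cox8b, Cox6a2 and Acta1 are highest in NUL_1 and NUL_4.

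Levels also differed with the animal number. Among nulliparous and lactating mice, with stage in the fit, 2 nuclear members were higher at 200 and above, Cox6b2 and Atp5d, the delta subunit of complex V, and 15 nuclear and 3 mitochondrial members were lower, beside 16.5% and 9.11% of all genes. Of the 15 nuclear members that were lower, 9 belonged to complex I. Ndufb3 was at 108 to 149 TPM under 200 and at 84.4 to 103 TPM above, and Ndufa10 was at 99.9 to 111 TPM and 78.2 to 92.9 TPM. Neither gene overlapped between the ranges, and the differences were -0.42 ± 0.06 and -0.30 ± 0.05 (SE; limma, adjusted p = 0.00051 and 0.00136). The 3 mitochondrial genes were mt-Nd6, mt-Co1 and mt-Atp6, at -0.53, -0.46 and -0.29. All 13 mitochondrial genes had a negative value. Cell markers differed too: 5 of 7 tested muscle markers were lower (median -2.49) and 5 of 6 Kupffer cell markers were higher (0.46). Of 8 hepatocyte markers 4 were higher and 2 lower, and 1 endothelium, 1 stellate cell and 1 erythroid marker were higher. NUL_1 and NUL_4, with most muscle transcripts, are 2 of the 3 nulliparous mice under 200. The part of these shifts was not tested. Since every involution mouse was numbered 200 or above, the animal number and the stage cannot be fully told apart in comparisons with involution.

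Genes that build and serve the chain were followed from lists chosen with earlier results of these data known. Their counts stand beside 2.72% of all genes higher and 6.49% lower into lactation, and 18.1% higher and 4.73% lower to involution. Of 16 complex I assembly genes tested, 2 fell into lactation (Ndufaf3 and Ndufaf8), and 2 rose and 2 fell from lactation to involution. Of 37 assembly genes of complexes II to V, 3 fell into lactation, led by Sco2, a copper chaperone of complex IV, at -0.58 ± 0.10 (SE; limma, adjusted p = 0.000933), and 3 rose and 2 fell to involution. Of 78 genes of mitochondrial ribosomal proteins, which translate the 13 mRNAs, 6 fell into lactation and none rose, and 11 rose and 1 fell to involution. Mrpl27 changed by -0.41 ± 0.06 and 0.45 ± 0.06 (SE; limma, adjusted p = 0.000401 and 7.49e-05). Of the 29 genes of mitochondrial RNA synthesis and stability, none passed between nulliparous mice and lactation, and 1 rose to involution, Mterf3, by 0.22 ± 0.08 (SE; limma, adjusted p = 0.0478). Of 19 regulators of respiratory genes, 1 rose to involution, the nuclear receptor gene Ppard, by 1.33 ± 0.44 (SE; limma, adjusted p = 0.0349). The 2 mitochondrial ribosomal RNAs were at 631 to 1665 TPM together and did not pass in any stage comparison. Outside the symbol rule, Cox4i1, the main Cox4 subunit of complex IV, fell into lactation like the members above, from 789 to 969 TPM to 745 to 824 TPM (log2 fold change -0.21 ± 0.06, SE; limma, adjusted p = 0.0243).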

How the data were processed

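Liver RNA of 19 mice in 3 stages was sequenced by the study with paired reads after poly(A) enrichment, aligned to GRCm38 and quantified with RSEM 1.3.1, per the methods and the labels. The authors deposited gene-level TPM for each mouse, rounded to 2 decimals, with column sums of 999999 to 1000001. RSEM divides reads among genes they fit. TPM keeps no depth, so no counting interval can be given, and the study's count test was not repeated.

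Members were found by symbol. Members and gene lists were chosen with earlier results of these data known. log2(TPM + 1) was tested with limma-trend (limma 3.58.1, R 4.3.3), all 19 mice in 1 fit, for the 16230 genes that averaged 0.1 TPM or more, with Benjamini-Hochberg adjustment at 0.05. The difference between animal numbers 200 and above and under 200 was tested in the nulliparous and lactating mice with stage as a covariate, and so was its interaction with stage. Sums over members were not tested. The fit was tested on simulated data. Mice are separate animals, and 0 of 171 pairs had identical values.

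Named members were all mitochondrial genes, the most abundant nuclear gene of each complex, up to 3 per direction, complex and comparison past the threshold, isoform pairs and complex II, with up to 3 genes per direction of each other list and the 5 most alike genes. Members of the animal-number comparison, such as Ndufb3, Ndufa10 and Atp5d, were named after their values were seen, and so were single mice. Near-identical copies were found with blastn at 97% identity or more over at least 80% of the copy and 150 bases. Positions are from GENCODE M21. Alternatives covered pseudocount, filter, scaling, groups, animal number and each mouse left out. No protein sequence was used here. The result of 1 further gene list is not reported here.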

Additional observations from a re-analysis of the deposited data

Results flagged for a closer look

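Within the nulliparous mice, 4 members had 1 mouse far from the other 6, with a gap to the next mouse that exceeded the critical share of the group's range (0.568 for 7 mice). In each case it was NUL_1, which also had the highest muscle transcripts. Cox6a2 was at 18.2 TPM there and at 4.81 TPM in the next mouse, Cox7a1 at 37.8 against 14.8 TPM, Cox8b at 52.3 against 10.4 TPM, and Ndufa4l2, a low-abundance relative of Ndufa4, at 4.02 against 1.37 TPM. In all, 129 groups of values were checked, and chance alone puts about 1 in 20 groups past such a limit. The part of muscle tissue in these values was not tested. No member had a lactation response that differed between the ranges of animal number by the test of the difference.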

How the results depend on the processing

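Of 18 gene and stage comparison pairs past the threshold among the named members, 170 of 266 alternative results kept their call and 96 lost it. Among pairs not past it, 40 of 1537 alternative results passed, and no value past the threshold in either fit changed sign. Among pairs not past it, 82 alternative values of 40 pairs and 46 values with 1 mouse left out (14 pairs) changed sign, and none of these passed. Rescaling without mt-Atp8, summing with copies and the removal of NUL_1 and NUL_4 were chosen after seeing the data. The causes of the shifts below were not tested.

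In lactation against nulliparous mice, 0 nuclear members were higher, and 1 was under quantile normalization and 1 with only animal numbers of 200 and above. The 8 nuclear members lower became 5 with no filter, 1 with only the 2 groups in the fit, 0 with median-ratio scaling, 4 with quantile normalization, 0 without the 10 most abundant other genes, 17 with the animal-number range as a covariate, 1 at 200 and above, 0 without NUL_1 and NUL_4 and 0 with the stricter call. Leaving out 1 mouse gave 2 to 14 (14 without NUL_227, 2 without NUL_221, LAC_102 or LAC_36, 3 without NUL_220, 4 without NUL_1, NUL_4 or NUL_13, and 5 without LAC_133 or LAC_240). The 0 mitochondrial members lower became 1 with the covariate, 1 at 200 and above and 0 to 1 with 1 mouse left out (1 without LAC_133 or LAC_36).

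From lactation to involution, the 4 nuclear members higher became 0 with median-ratio scaling, 2 among nuclear genes only, 2 at 200 and above, 0 with the stricter call and 2 to 4 with 1 mouse left out (2 without LAC_102). The 0 nuclear members lower became 11 with median-ratio scaling, 3 with quantile normalization, 2 without the 10 most abundant other genes and 0 to 2 with 1 mouse left out (2 without LAC_213). The 2 mitochondrial members lower became 0 with no filter, 1 with only the 2 groups, 7 with median-ratio scaling, 4 with quantile normalization, 1 with the covariate, 0 at 200 and above, 5 with copies, 1 without NUL_1 and NUL_4, 0 with the stricter call and 1 to 6 with 1 mouse left out (6 without LAC_213).

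Between involution and nulliparous mice, the 1 nuclear member higher became 0 with a pseudocount of 0.1 or 0.5, no filter, median-ratio scaling, quantile normalization, nuclear genes only, robust moderation, the covariate, 200 and above, rescaling without mt-Atp8, without NUL_1 and NUL_4 and with the stricter call, and 0 to 1 with 1 mouse left out. The 1 lower became 2 with a minimum mean of 1 TPM, 2 without mt-Atp8, 3 with median-ratio scaling, 0 with no filter, only the 2 groups, the 10 most abundant other genes removed, the covariate, 200 and above, NUL_1 and NUL_4 removed or the stricter call, and 0 to 7 with 1 mouse left out (7 without NUL_227). The 2 mitochondrial members lower became 4 with a minimum mean of 1 TPM, 4 with robust moderation, 5 with copies, 1 with only the 2 groups, 1 with quantile normalization, 0 with no filter, the covariate, 200 and above, NUL_1 and NUL_4 removed or the stricter call, and 0 to 6 with 1 mouse left out (6 without NUL_227, 0 without ID6_201, ID6_209, ID6_216, NUL_1 or NUL_13). The log2 ratio of the summed nuclear members was 0.02 from lactation to involution and -0.09 from nulliparous mice, and -0.14 and -0.20 with median-ratio scaling. TPM keeps no read depth, so the counting error of low members such as Atp5s is unknown.

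The values that changed sign are log2 fold changes. From lactation to involution, median-ratio scaling gave Atp5g1 -0.14, Atp5l -0.0020, Cox5b -0.15, Cox6a1 -0.14, Cox6b1 -0.11, Cox8a -0.16, Ndufb2 -0.11, Ndufb9 -0.025, Ndufv3 -0.016, Sdhb -0.10, Sdhc -0.10 and Sdhd -0.12. Quantile normalization gave Atp5g1 -0.060, Cox5b -0.0070, Cox6a1 -0.0066 and Cox8a -0.061. Nuclear genes only gave Atp5g1 -0.022, Cox5b -0.030, Cox6a1 -0.024, Cox8a -0.040 and Sdhd -0.0052, and removal of the 10 most abundant other genes gave Atp5g1 -0.0057, Cox5b -0.013, Cox6a1 -0.0077 and Cox8a -0.023. At 200 and above Atp5g1 was at -0.017, Atp5g2 0.057, Cox6a2 0.068, Cox7a1 -0.24, Cox8a -0.015, Cox8b 0.35, Ndufa4l2 0.079, Sdhd -0.032, mt-Nd4l 0.0049, mt-Nd5 0.13 and mt-Nd6 0.36. With the covariate Atp5g2 was at 0.041, Cox6a2 0.43, Cox6b2 -0.018, Cox8a -0.018, Cox8b 0.88, Ndufa4l2 0.10, Sdhc -0.0093 and mt-Nd6 0.23. Rescaling without mt-Atp8 gave Cox5b -0.0016 and Cox8a -0.011. With 1 mouse left out the ranges were -0.10 to 0.057 for Atp5g2, -0.019 to 0.035 for Cox5b, -0.0044 to 0.054 for Cox6a1, -0.039 to 0.054 for Cox8a, -0.51 to 0.018 for Cox8b and -0.16 to 0.055 for mt-Nd6.

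Between involution and nulliparous mice, the covariate gave Atp5s 0.12, Cox6b2 -0.28, Ndufa4l2 0.013, Ndufb9 0.015 and Uqcrh -0.0067. At 200 and above Atp5s was at 0.078, Cox6b2 -0.50, Cox8b 0.11, Ndufa2 0.046, Ndufa4l2 0.028 and Ndufb9 0.043, and without NUL_1 and NUL_4 Atp5s was at 0.080, Ndufa2 0.022 and Ndufb9 0.0029. Ndufa2 was at 0.0053 with quantile normalization and 0.029 without the 10 most abundant other genes. Sdhb and Uqcrh were at -0.072 and -0.066 with median-ratio scaling and -0.018 and -0.012 among nuclear genes only. With 1 mouse left out the ranges were -0.19 to 0.012 for Atp5s, -0.047 to 0.022 for Ndufa2 and -0.034 to 0.10 for Sdhb.

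Between lactation and nulliparous mice, the fit without NUL_1 and NUL_4 gave Cox6a2 0.35, Cox8b 0.12, Ndufa4l2 0.18, Sdhb 0.083 and mt-Co2 0.010. Sdhb and mt-Co2 were at 0.030 and 0.037 with median-ratio scaling and 0.036 and 0.043 without the 10 most abundant other genes. At 200 and above Sdhb was at 0.091, Sdhd 0.0075 and mt-Co1 -0.0061, and quantile normalization gave mt-Atp6 0.018, mt-Co3 0.065, mt-Nd2 0.046 and mt-Nd3 0.15. With 1 mouse left out the ranges were -0.055 to 0.30 for Cox7a1, -0.15 to 0.14 for Ndufa4l2, -0.095 to 0.042 for Sdhb, -0.062 to 0.039 for mt-Co2 and -0.19 to 0.027 for mt-Nd3.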

Other observations

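Genes outside the rule whose pattern over the 19 mice was most like that of the members were listed by Pearson's r of log2(TPM + 1), among 11513 genes that averaged 1 TPM or more. For the mitochondrial sum they were Gm10925 (r = 0.967), the nuclear copy of mt-Atp6, then Agk (0.919), Pdp2 (0.917), Abhd18 (0.904) and Fam214a (0.903). For the nuclear sum they were Ddt (0.881), Dynlrb1 (0.873), Ppdpf (0.858), Fah (0.854) and Dnajc19 (0.840). These values are a description over mice of 3 stages that share libraries and a fixed TPM total.

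Coq8a, which supports coenzyme Q synthesis, rose from lactation to involution by 0.53 ± 0.13 and Coq10a, which binds coenzyme Q, by 0.51 ± 0.10 (SE, log2 scale; limma, adjusted p = 0.00586 and 0.000897), while Pdss1 and Coq3, enzymes of coenzyme Q synthesis, fell by 0.31 and 0.25. Among carriers, Ucp2, an uncoupling protein, rose by 0.68 ± 0.17 and Slc25a5, an exchanger of ADP and ATP, fell by 0.29 ± 0.08 (limma, adjusted p = 0.00707 and 0.016). Prodh2, which feeds electrons from hydroxyproline breakdown, fell into lactation by 0.41 and rose to involution by 0.46 (limma, adjusted p = 0.000401 and 6.35e-05). Tymp, which breaks down thymidine, fell by 0.54 and rose by 0.52. All 22 mitochondrial tRNA genes were listed at 0. By list, from lactation to involution 2 rose and 2 fell of 14 genes of coenzyme Q and mobile carriers, 4 rose and 2 fell of 12 carrier genes of ATP, phosphate and uncoupling, 2 rose and 1 fell of 10 other electron entry genes and 3 rose of 13 genes of mitochondrial DNA maintenance. Into lactation 2, 0, 1 and 1 fell and none rose. The shares of all genes were 18.1% higher and 4.73% lower to involution, and 2.72% and 6.49% into lactation.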
